A study of Arabidopsis thaliana with 14 samples.

Results

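The LHCB genes of Arabidopsis thaliana encode the chlorophyll a/b-binding proteins that form the light-harvesting antenna of photosystem II. The set described here holds 10 loci taken by locus tag, with no threshold on a measured value, out of 15540 genes with poly(A) clusters. It comprises LHCB1.1 (AT1G29920), LHCB1.2 (AT1G29910), LHCB1.3 (AT1G29930), LHCB1.4 (AT2G34430), LHCB1.5 (AT2G34420), LHCB2.1 (AT2G05100), LHCB2.2 (AT2G05070), LHCB2.3 (AT3G27690), LHCB3 (AT5G54270) and LHCB4.1 (AT5G01530). All 10 had poly(A) clusters, and 4 of the 10 were listed in the authors' deposited RNA-seq table of 168 genes.

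The study compared the wild type Col0 with the cpsf70 mutant to ask how the m6A-binding polyadenylation factor CPSF70 bears on the choice of poly(A) site. Poly(A) sites were sequenced in 2 Col0 and 2 cpsf70 libraries of 12-day seedlings, and RNA-seq was done in another 2 libraries of each genotype at the same age. Antibody-enriched m6A sequencing was done in 2 libraries of 14-day Col0 seedlings. FLAG pull-down after crosslinking (CLIP) was done in 2 libraries of a 12-day line that overexpresses CPSF70, and the 2 Col0 CLIP samples were not analysed here. All plants grew under the same long-day light and no treatment is named; the mutant allele, the overexpression promoter and the background of that line were not given in the sources used here. No label states that the replicates are separate plantings, and p-values measure the spread between these libraries, which may be technical.

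LHCB1 and LHCB2 proteins build the abundant trimers of the major antenna, LHCB3 is a further subunit of a class of these trimers, and LHCB4 (CP29) is a monomeric link between the trimers and the photosystem core. All are encoded in the nucleus, imported into the chloroplast and inserted into the thylakoid membrane, and their transcripts are among the most abundant of green tissue. LHCB2 is also the subunit whose phosphorylation by the kinase STN7 moves antenna between the photosystems in a state transition. LHCB1.1, LHCB1.2 and LHCB1.3 stand side by side on chromosome 1, and LHCB1.4 and LHCB1.5 on chromosome 2.

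The poly(A) libraries held an estimated 3.14 and 3.25 times 1e6 reads in Col0 replicates 1 and 2, and 3.88 and 6.09 times 1e6 reads in cpsf70 replicates 1 and 2. Pearson's r over sites was 0.905 between the Col0 libraries, 0.908 between the cpsf70 libraries and 0.841 to 0.892 between genotypes. Both cpsf70 tables list the same 29896 clusters and carry the same internal name, but none of their values is identical, so they were used as 2 libraries. Summed tags of 8 green leaf marker genes ranged from 14670 to 18850 TPM (tags scaled to library depth), those of the 7 root markers with tags from 514 to 735 TPM, and those of the 1 of 7 seed storage markers and the 2 of 4 floral markers with tags reached at most 5.17 and 4.87 TPM. CPSF30 (AT1G30460), the mutated gene and the source of the CPSF70 protein, stood in the authors' deposited table at 5.58 and 4.87 FPKM in Col0 against 0.542 and 0.593 FPKM in cpsf70. In whole seedlings, fewer green cells and less RNA per green cell cannot be told apart.

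The 4 LHCB genes in the authors' deposited RNA-seq table were all higher in cpsf70, by folds of 1.63 to 1.82. Of all 168 genes listed, 99 were higher and 69 lower. The 4 are copies of LHCB1 and LHCB2, which may share reads, so they are not independent. How such RNA-seq reads were counted was not tested. The table gives FPKM (fragments scaled to gene length and depth) and was preselected, with no p above 0.0497, so it cannot show genes that did not change. LHCB1.2, a major antenna gene, stood at 220.6 and 249.2 FPKM in Col0 against 431.4 and 403.1 FPKM in cpsf70, with the authors' fold of 1.82 and p = 0.0287 in the authors' deposited table. LHCB1.1 stood at 35.8 and 40.1 FPKM in Col0 against 63.2 and 58.0 FPKM in cpsf70, with a fold of 1.63 and p = 0.0176 in the authors' deposited table. In both genes each cpsf70 library lay above each Col0 library.

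LHCB2.1, which encodes the antenna protein used in state transitions, was listed at 35.0 and 34.6 FPKM in Col0 against 60.4 and 60.0 FPKM in cpsf70, with a fold of 1.71 and p = 0.00930 in the authors' deposited table. LHCB2.2 was listed at 25.3 and 25.2 FPKM in Col0 against 42.5 and 43.4 FPKM in cpsf70, with a fold of 1.67 and p = 0.0106 in the authors' deposited table. The libraries of a genotype lay closest together in these LHCB2 genes, and again the genotypes did not overlap. The folds sit near the middle of the list, where the 99 genes listed as higher had a median fold of 1.77 in the authors' deposited table. The other 6 LHCB genes were not in that table, and their RNA-seq levels were not analysed here.

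In the poly(A) libraries the LHCB genes were among the most abundant transcripts, with mean summed tags from 617 TPM for LHCB2.3 to 7606 TPM for LHCB1.5, ranks 142 and 4 of 15540 genes. No correction for gene length was applied to these TPM levels. They include tags spread upstream of the 3′ end, and whether those mark transcript ends was not tested. LHCB1 genes carried most of the family. Their share of all LHCB tags at the 3′ end was 74.2% and 74.7% in Col0 replicates 1 and 2 and 80.2% and 78.6% in cpsf70 replicates 1 and 2. LHCB2 genes took 8.56% to 9.80%, LHCB4.1 8.48% to 10.3%, and LHCB3 2.81% to 5.82%, over the 4 libraries.

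The order of the mean tag sums over the 4 libraries was LHCB1.5 (7606 TPM), LHCB1.3 (5165), LHCB1.2 (4248), LHCB1.1 (3370), LHCB4.1 (2624), LHCB1.4 (2378), LHCB3 (1425), LHCB2.2 (1220), LHCB2.1 (712) and LHCB2.3 (617). In Col0, LHCB1.2, LHCB1.3 and LHCB1.1 lay within their SDs of each other, at 3798 ± 524, 3289 ± 733 and 3159 ± 784 TPM (SD, n = 2). LHCB4.1 and LHCB1.4, at 2514 ± 510 and 2166 ± 470 TPM, also lay within their SDs of each other. So did LHCB2.1 and LHCB2.3, at 649 ± 113 and 573 ± 140 TPM. These SDs include a difference between libraries that the genes share, since replicate 1 lay above replicate 2 in all 10 members. Within each Col0 library the order of LHCB1.2, LHCB1.3 and LHCB1.1 was the same. LHCB4.1 lay above LHCB1.4 and LHCB2.1 above LHCB2.3 in each. Differences between genes were not tested.

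The LHCB1 and LHCB2 copies often carried fractions of a read. Among clusters under 80 reads, the share of values off a whole read by at least 0.02 read was 81.0% for LHCB1.1, 65.5% for LHCB1.2, 53.3% for LHCB1.3, 39.3% for LHCB1.4 and 40% for LHCB1.5. It was 37.9% to 44.3% for the LHCB2 genes, 5.08% for LHCB3 and 9.86% for LHCB4.1, beside 17.6% over all other genes. Values of single LHCB1 and LHCB2 copies are uncertain, since counting could divide reads between near-identical genes. How such reads were counted was not tested.

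No LHCB gene total passed the test between genotypes. The tested total sums only the sites listed in all 4 tables, whereas the TPM sums printed below hold every cluster of a gene. In limma on log2(TPM + 1) over 10197 genes, 0 of 10 members had an adjusted p under 0.05, where 1.79% of all genes did, and 1 of 10 had an unadjusted p under 0.05, where 6.63% did. The change was above 0 in 9 of the 10, beside 52% of all genes, with a median of 0.18 among the members and 0.02 among all genes. Without Col0 replicate 2 only 4 of 10 were above 0 (median −0.026, all genes −0.10), without cpsf70 replicate 1 there were 6 (0.074, all genes −0.13), and the median was 0.43 without Col0 replicate 1 and 0.34 without cpsf70 replicate 2. The genotypes did not overlap in 4 of the 10, LHCB1.2, LHCB1.3, LHCB2.1 and LHCB3, beside 36.4% of all genes. With 2 libraries a group, an exact permutation test of a single gene cannot go below p = 0.333 (two-sided).

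Of the major trimer genes, LHCB1.1 summed to 3714 and 2605 TPM in Col0 against 3767 and 3397 TPM in cpsf70, a log2 change of 0.20 with a standard error of 0.45, which the limma fit set equal for all genes. LHCB1.2 summed to 4169 and 3427 TPM in Col0 against 5115 and 4281 TPM in cpsf70 (change 0.31). LHCB1.3 summed to 3807 and 2771 TPM in Col0 against 7531 and 6550 TPM in cpsf70, with a change of 1.11 and an adjusted p of 0.36 by limma. LHCB1.3 was thus the member with the largest separation, both cpsf70 libraries lying far above both Col0 libraries. LHCB1.4 summed to 2499 and 1834 TPM in Col0 against 2765 and 2416 TPM in cpsf70 (change 0.27). LHCB1.5, the most abundant copy, summed to 7954 and 6573 TPM in Col0 against 9291 and 6603 TPM in cpsf70 (change 0.12). Both of these overlapped between genotypes, since Col0 replicate 1 lay above cpsf70 replicate 2.

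LHCB2.1 summed to 729 and 570 TPM in Col0 against 805 and 743 TPM in cpsf70 (change 0.26). LHCB2.2 summed to 1279 and 1075 TPM in Col0 against 1414 and 1111 TPM in cpsf70 (change 0.10). LHCB2.3 summed to 673 and 474 TPM in Col0 against 740 and 583 TPM in cpsf70 (change 0.17). In all LHCB2 genes cpsf70 replicate 1 was the highest library and Col0 replicate 2 the lowest. LHCB4.1, the CP29 gene, summed to 2875 and 2154 TPM in Col0 against 2941 and 2526 TPM in cpsf70 (change 0.13), with overlapping genotypes. LHCB3 was the only member with a change below 0, at 1818 and 1400 TPM in Col0 against 1245 and 1237 TPM in cpsf70 (change −0.36). With clusters joined by midpoints within 24 nt its change was 0.019, and no member was below 0. Every member except LHCB1.3 had an adjusted p of 1.00 by limma.

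Each LHCB gene had 1 cluster that held a large part of its tags, and the rest were spread along the transcript. A strongest cluster of at most 82 nt held 39.99% to 87.7% of a gene's tags in the 4 libraries, from LHCB3 in Col0 replicate 1 to LHCB2.3 in Col0 replicate 2. In all libraries it had the same start for 8 of the 10 genes, and in LHCB1.2 and LHCB2.3 the starts differed between genotypes. In TAIR10 coordinates as the authors gave them, the strongest cluster of LHCB1.2 was chr1:10472262-10472306 on the minus strand in Col0. That of LHCB1.1 was chr1:10474894-10474944 (minus), and that of LHCB1.3 was chr1:10478979-10479029 (plus). LHCB1.5 ended mainly at chr2:14522575-14522622 (minus) and LHCB1.4 at chr2:14525733-14525782 (plus). LHCB2.2 ended at chr2:1799330-1799379 (minus), LHCB2.1 at chr2:1823342-1823391 (minus) and LHCB2.3 at chr3:10256968-10257012 (plus, bounds as in Col0). LHCB4.1 ended at chr5:210294-210343 (plus, bounds as in Col0). LHCB3 ended at chr5:22039447-22039494 (plus) in Col0, where the cpsf70 tables give chr5:22039447-22039528. Strands were inferred from the tags, and exons and UTRs were not used here.

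**Figure D1:**
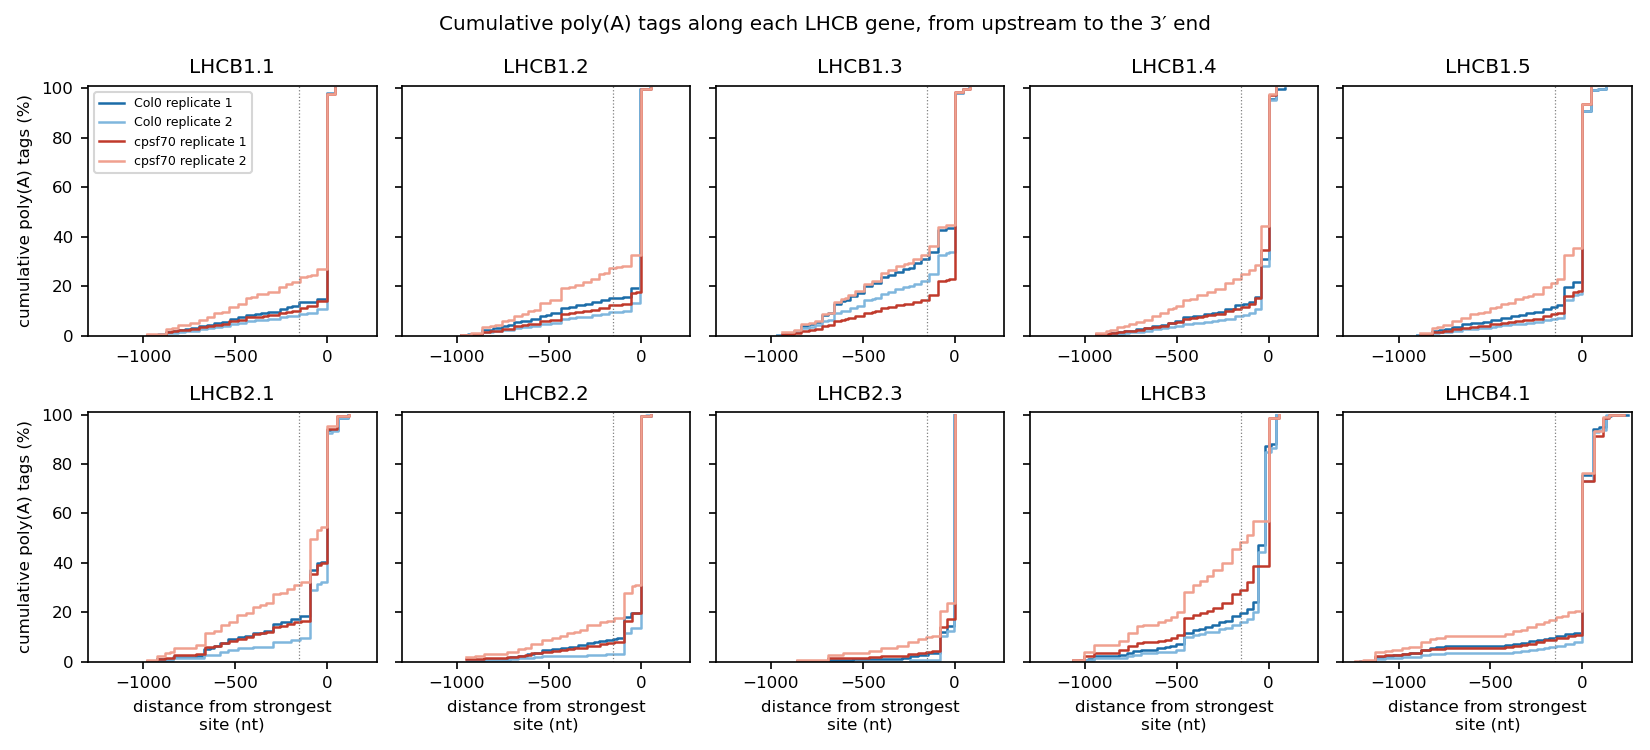
Cumulative percent of poly(A) tags (y axis) along each LHCB gene by distance from its strongest site in nt (x axis, upstream negative), with a line for each of the 4 libraries and a dotted line at −150 nt. In 9 of 10 genes the cpsf70 replicate 2 line is the highest at the dotted line and the Col0 replicate 2 line the lowest; in LHCB1.3 cpsf70 replicate 1 is the lowest.

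The tag sum of a gene mixes its end with these upstream tags. A narrower level, added after the data had been seen, counts only clusters whose midpoint lies within 150 nt of the strongest site, and is called the end zone here. Over 5082 genes tested with limma, 1 of 10 members passed as higher in cpsf70, where 0.689% of all genes did, and 0 of 10 as lower, where 1.83% did. At an unadjusted p under 0.05 there were 2 of 10, beside 7.85% of all genes, and the genotypes did not overlap in the same number of members, beside 31.7% of all genes. The members were LHCB1.3 and LHCB3.

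LHCB1.3 rose in the end zone. It stood at 2628 and 2158 TPM in Col0 against 6439 and 4404 TPM in cpsf70, a log2 change of 1.16 (SE 0.35, adjusted p = 0.042 by limma). Its strongest cluster alone stood at 2086 and 1784 TPM in Col0 against 5708 and 3533 TPM in cpsf70. Both cpsf70 libraries exceeded both Col0 libraries by a wide margin. With the replicate numbers taken as a block, LHCB1.3 was not called. The call did not hold without Col0 replicate 1 (adjusted p = 0.12 by limma), without Col0 replicate 2 (0.56) or without cpsf70 replicate 1 (0.66), although the change stayed between 0.89 and 1.43.

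As a share of all LHCB end-zone tags, LHCB1.3 took 10.5% and 10.4% in Col0 and 20.4% and 20.1% in cpsf70. The libraries of a genotype differed by less than 0.4 percentage points in this share, which does not depend on the scaling of a library. The neighbouring copies LHCB1.1 and LHCB1.2 together held 6802 and 5497 TPM in Col0 against 7873 and 5769 TPM in cpsf70. Their sum did not separate the genotypes, and the sum of the 9 LHCB genes other than LHCB1.3 differed by a ratio of 1.04 between the genotype means, at 20520 ± 2778 and 21307 ± 5346 TPM (SD, n = 2). Fractional reads were most frequent in the chromosome 1 copies (above), and their part in the LHCB1.3 difference was not tested.

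**Figure D2:**
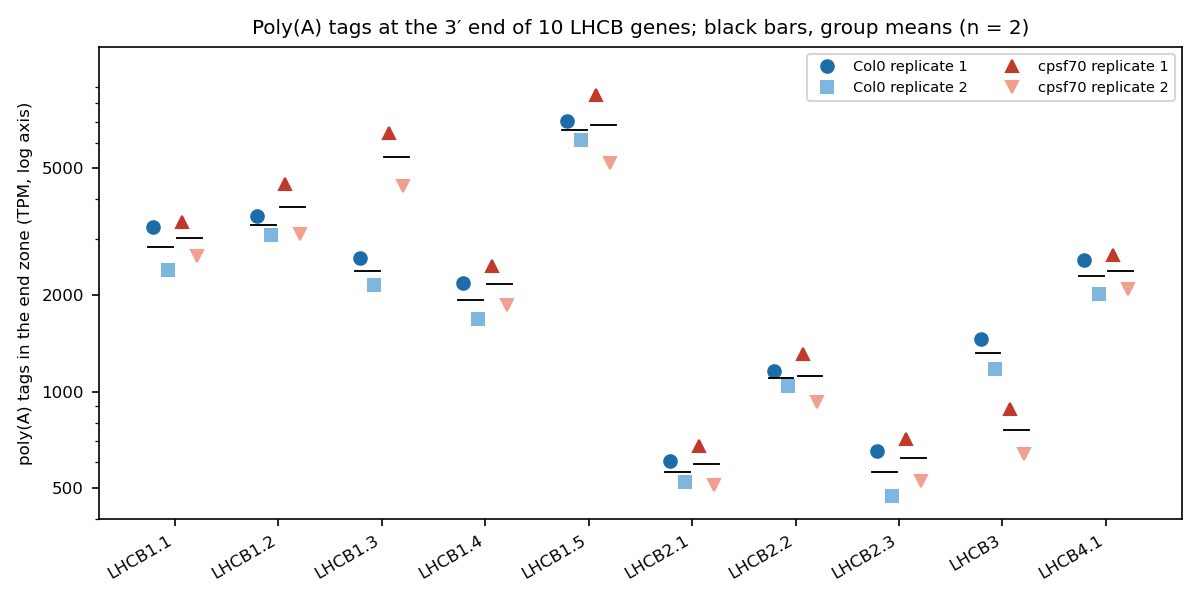
Poly(A) tags in the end zone of the 10 LHCB genes (y axis, TPM on a log scale) in each of the 4 libraries, with black bars at the group means (n = 2). LHCB1.3 lies higher in both cpsf70 libraries (6439 and 4404 TPM) than in Col0 (2628 and 2158 TPM), LHCB3 lies lower, and the other 8 genes overlap between genotypes.

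The RNA-seq and poly(A) levels of the listed genes can be set side by side, though they come from different libraries, units and counting. LHCB1.2 held 3536 and 3101 TPM in the end zone in Col0 and 4483 and 3114 TPM in cpsf70, a log2 change of 0.17. LHCB1.1 held 3266 and 2395 TPM in Col0 against 3390 and 2655 TPM in cpsf70 (0.10). Both genes overlapped between genotypes, where their FPKM did not, but the FPKM come from a list preselected for differences. LHCB2.1 held 604 and 519 TPM in Col0 against 678 and 511 TPM in cpsf70 (0.07), and LHCB2.2 held 1163 and 1040 TPM in Col0 against 1309 and 926 TPM in cpsf70 (0.00). In the LHCB2 genes cpsf70 replicate 1 was the highest and cpsf70 replicate 2 the lowest library. None of these 4 passed in the poly(A) libraries, with an adjusted p of 1.00 by limma in each, and the difference between the assays was not tested. The FPKM of LHCB1.2 was 6.19 times that of LHCB1.1 in Col0 and 6.88 times in cpsf70, while the ratio of their end-zone tags was 1.17 and 1.26.

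Of the 10 members, LHCB3 had the lowest ratio of cpsf70 to Col0 tags at its 3′ end. Its end zone held 1462 and 1178 TPM in Col0 against 885 and 637 TPM in cpsf70, a log2 change of −0.81 (SE 0.35, adjusted p = 0.41 by limma). Both cpsf70 libraries lay below both Col0 libraries, but the change did not pass the threshold. It passed after the libraries had been rescaled by median ratios (change −0.86, adjusted p = 0.041 by limma). As a share of LHCB end-zone tags, LHCB3 took 5.82% and 5.69% in Col0 and 2.81% and 2.91% in cpsf70.

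A single cluster accounted for much of the LHCB3 difference. The cluster chr5:22039418-22039442, 25 nt long, held 419 and 341 TPM in the Col0 tables, and no cluster of the cpsf70 tables overlapped it. Without it, the LHCB3 end zone held 1043 and 837 TPM in Col0 against 885 and 637 TPM in cpsf70, a log2 change of −0.32, and the genotypes overlapped. The clusters just upstream of it, within 150 nt of the strongest site, held 83.8 and 60.6 TPM in Col0 against 123 and 105 TPM in cpsf70. Of 209 LHCB clusters listed in both Col0 tables, 4 had no overlapping cluster in cpsf70 (1.91%). Over all genes the share was 14.3% of 21365 clusters, and 5.98% of the 184 with a mean of at least 379 TPM.

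The bounds of the neighbouring LHCB3 clusters also differed between the tables. Past the missing cluster, Col0 lists chr5:22039447-22039494 (727 and 565 TPM), chr5:22039496-22039501 (19.4 and 20.01 TPM) and chr5:22039503-22039551 (213 and 191 TPM). Over about the same stretch, cpsf70 lists chr5:22039447-22039528 (743 and 517 TPM) and chr5:22039529-22039561 (18.7 and 15.1 TPM). Summed, these held 960 and 776 TPM in Col0 against 762 and 532 TPM in cpsf70. The cpsf70 tables hold clusters of up to 147 nt and the Col0 tables of up to 51 nt, so a difference between genotypes and a difference in how clusters were drawn cannot be told apart at this position.

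**Figure D3:**
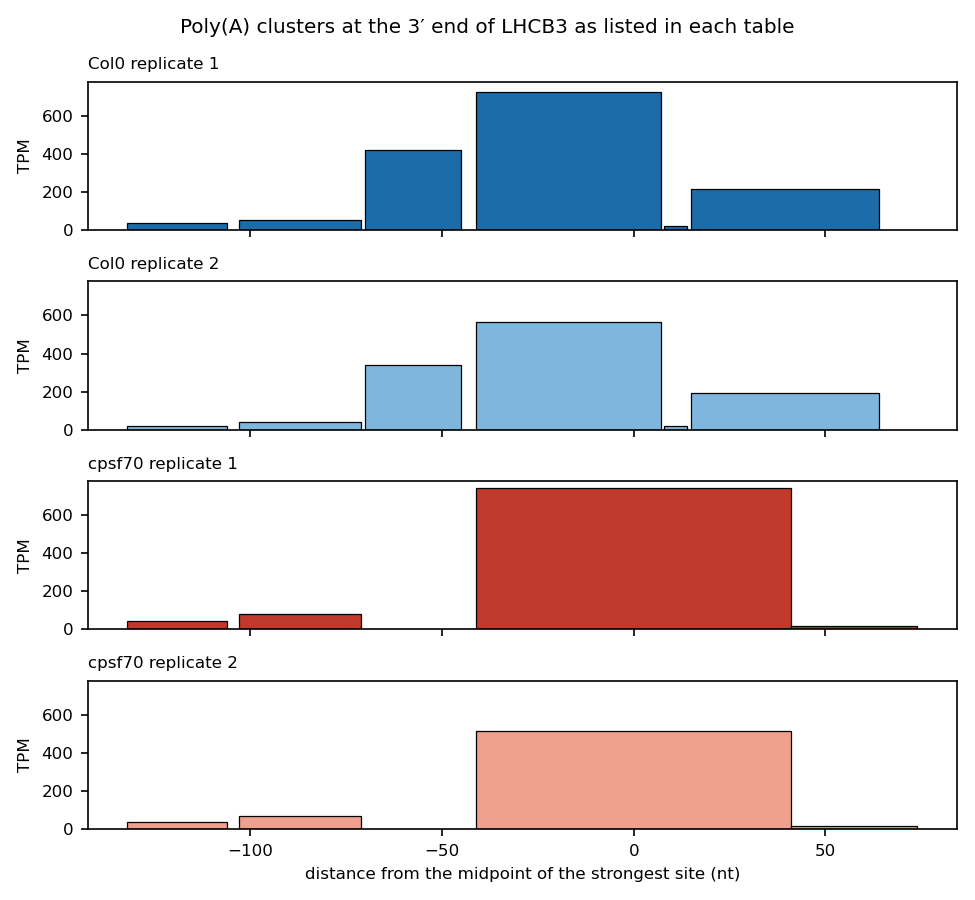
Poly(A) clusters at the 3′ end of LHCB3, by distance from the midpoint of its strongest site in nt (x axis), in each of the 4 tables, where bar width is the listed span of a cluster and bar height its level in TPM. The cluster centred 57.5 nt upstream holds 419 and 341 TPM in the Col0 tables and has no counterpart in the cpsf70 tables.

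Tags upstream of the end zone formed a larger part of most LHCB genes in cpsf70 replicate 2 than in the other libraries. The median share of tags over 150 nt upstream was 12.1% and 7.94% in Col0 replicates 1 and 2 and 10.4% and 22.3% in cpsf70 replicates 1 and 2. Over all 979 genes with enough upstream tags the medians were 15.8% and 12.1% in Col0 and 20.1% and 29.8% in cpsf70. The 89 other genes at least as abundant as the lowest LHCB gene had medians of 8.25% and 4.98% in Col0 and 9.18% and 18.4% in cpsf70. The LHCB median of cpsf70 replicate 1 lay between those of the Col0 libraries, whereas the medians of all genes and of the abundant genes lay above both. This order was not particular to the members. By the ratio of upstream to end-zone tags it was also found in LHCB4.2, LHCB5 and NPQ4, though not in LHCB6. The log2 ratio of upstream to end-zone tags was higher in cpsf70 in 9 of 10 members, beside 85.9% of all genes, with a median change of 0.78 among members and 0.93 among all genes.

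No member passed the test of this ratio in limma, which was also added after the data had been seen. The count was 0 of 10 at an adjusted p under 0.05, where 5.01% of all genes passed, and 2 of 10 at an unadjusted p under 0.05, where 25.3% did. The genotypes did not overlap in 2 of 10 members, LHCB2.3 and LHCB3, beside 67.6% of all genes. With clusters under 3 TPM, which only cpsf70 replicate 1 lists, left out of every library, LHCB3 alone remained and no member had an unadjusted p under 0.05. In 9 of 10 members Col0 replicate 2 was the lowest and cpsf70 replicate 2 the highest library, an order found in 59.8% of all genes and in 83.1% of the 89 other genes at least as abundant as the lowest LHCB gene. Without cpsf70 replicate 2 the median change of the members was 0.20, and without cpsf70 replicate 1 it was 1.46, beside 0.57 and 1.33 over all genes.

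In LHCB3 the upstream share was 19.6% and 15.9% in Col0 and 28.9% and 48.5% in cpsf70, a change in the log2 ratio of 1.53 (SE 0.62, adjusted p = 0.19 by limma). Its upstream tags themselves were 356 and 222 TPM in Col0 against 360 and 600 TPM in cpsf70, so in cpsf70 replicate 1 the upstream level matched that of Col0 replicate 1 and the share differed through the end zone. The Col0 end zone includes the cluster chr5:22039418-22039442 (419 and 341 TPM), which the cpsf70 tables do not list. The ratio without that cluster was not tested. Without cpsf70 replicate 2 the change in LHCB3 was 0.92, and all 4 changes with a library left out were above 0. LHCB2.3 had the fewest upstream tags, with 2.89% and 0.714% in Col0 and 3.92% and 9.89% in cpsf70 (change 2.01, SE 0.79, adjusted p = 0.18 by limma). These shares rest on 19.4 and 3.39 TPM in Col0 against 29.0 and 57.6 TPM in cpsf70.

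LHCB1.3 went the other way in cpsf70 replicate 1. Its upstream share was 31.0% and 22.1% in Col0 and 14.5% and 32.8% in cpsf70, with a change of −0.31 (SE 0.69). Its upstream tags were 1179 and 612 TPM in Col0 against 1092 and 2147 TPM in cpsf70. The genotypes overlapped in these levels, unlike in its end zone.

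In the other LHCB genes the upstream shares of Col0 ranged from 3.19% to 17.1%, those of cpsf70 replicate 1 from 7.45% to 15.9% and those of cpsf70 replicate 2 from 16.7% to 31.2%. LHCB1.2, for example, held 15.2% and 9.51% in Col0 and 12.3% and 27.3% in cpsf70. LHCB4.1 held 9.69% and 5.88% in Col0 and 8.91% and 16.8% in cpsf70. In these 7 genes cpsf70 replicate 1 lay between the Col0 libraries.

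**Figure D4:**
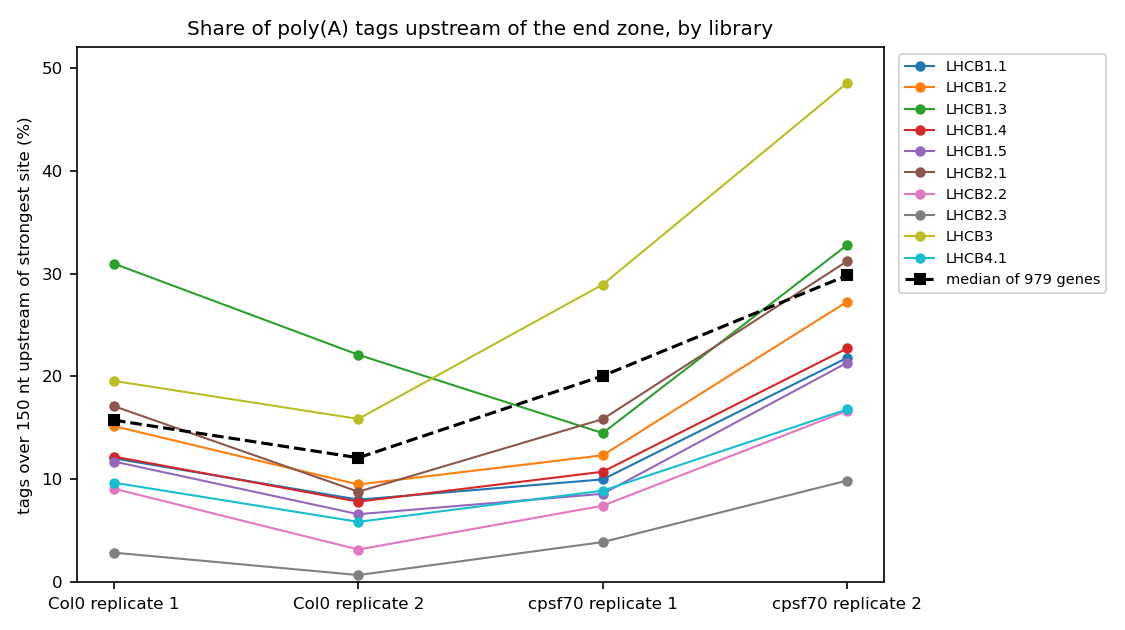
Percent of poly(A) tags over 150 nt upstream of the strongest site (y axis) in each of the 4 libraries (x axis), with a line joining the values of each LHCB gene and a dashed line for the median of 979 genes. The dashed line lies at 15.8% and 12.1% in Col0 and 20.1% and 29.8% in cpsf70; cpsf70 replicate 2 is the highest library for all 10 genes.

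The planned measure of site choice, the log2 ratio of the distal to the proximal of the 2 strongest sites after joining clusters at gaps of at most 24 nt, could be taken in 4 members. In the other 6 the tags along the gene joined into 1 site listed in all tables. In these 4 the distal site was itself a joined stretch. It was chr2:1823228-1824093 in LHCB2.1, chr2:1799278-1800124 in LHCB2.2, chr5:22038857-22039561 in LHCB3 and chr5:209884-210483 in LHCB4.1. These stretches hold upstream tags as well as the 3′ end, so the ratio does not set 2 single cleavage positions against each other. All 4 ratios of distal to proximal were lower in cpsf70, a direction found in 71.9% of the 1961 genes measured. The genotypes did not overlap in 3 of the 4, beside 55.9% of all genes. In limma 0 of 4 passed, where 0.561% of all genes passed, and 2 of 4 had an unadjusted p under 0.05, where 18.6% did. The median change was −1.23 among these members and −0.40 among all genes. With clusters joined by midpoints within 24 nt all 10 members could be measured, and both medians were −0.25. Without cpsf70 replicate 2 the members' median was −0.70 and without cpsf70 replicate 1 it was −1.75, beside −0.23 and −0.57 among all genes.

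LHCB3, with the proximal site chr5:22038653-22038811, held 50.4 and 30.5 TPM there in Col0 and 55.9 and 98.3 TPM in cpsf70, and its site use changed by −1.38 (SE 0.44, adjusted p = 0.21 by limma). Its distal site in Col0 includes the cluster chr5:22039418-22039442 (419 and 341 TPM), which the cpsf70 tables do not list. LHCB2.1 held 13.4 and 7.39 TPM at chr2:1824181-1824368 in Col0 and 22.0 and 40.3 TPM in cpsf70 (change in site use −1.26, adjusted p = 0.24 by limma). LHCB2.2 held 15.0 and 8.00 TPM at chr2:1800186-1800324 in Col0 and 21.5 and 35.9 TPM in cpsf70 (−1.19, adjusted p = 0.27 by limma). In these genes the proximal level was highest in cpsf70 replicate 2 and lowest in Col0 replicate 2. LHCB4.1 held 181 and 72.3 TPM at chr5:209070-209595 in Col0 and 168 and 267 TPM in cpsf70 (−0.80, adjusted p = 0.40 by limma), with overlapping genotypes.

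The proximal sites of LHCB2.1 and LHCB2.2 were the single sites with the smallest p among the 15 LHCB sites tested over 13668 sites. They changed by 1.49 (adjusted p = 0.094 by limma) and 1.26 (adjusted p = 0.24). No LHCB site passed, where 2.2% of all sites did, and 4 of 15 had an unadjusted p under 0.05, where 8.85% did.

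The mean position of all tags from the annotated gene end, which needs no joining, lay further upstream in cpsf70 in 9 of 10 members, beside 67.5% of 5525 genes. The median change was −34.1 nt among members and −10.2 nt among all genes. It was −7.91 nt without cpsf70 replicate 2 (all genes −6.43 nt), −66.9 nt without cpsf70 replicate 1 and −21.2 nt without Col0 replicate 2. LHCB3 had the largest shift, with a mean position of −197 and −176 nt in Col0 and −234 and −336 nt in cpsf70, a change of −98.1 nt (SE 47.4, adjusted p = 0.27 by limma). Its Col0 positions also include the cluster chr5:22039418-22039442, which the cpsf70 tables do not list. LHCB1.3 was the exception at 17.2 nt. By limma 0 of 10 members passed and none had an unadjusted p under 0.05, where 15% and 35% of all genes did, and the genotypes did not overlap in 2 of 10, beside 73.1% of all genes.

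In wild-type seedlings, m6A peaks on the LHCB genes had low folds. Leaving out peaks that begin over 150 nt past the strongest site, replicates 1 and 2 listed 12 and 8 peaks on 9 and 7 of the 10 genes, with the authors' folds of 1.32 to 2.11 and 1.27 to 1.56. The median fold was 1.87 and 1.39 on LHCB genes, beside 4.23 and 5.73 over all 12620 and 12352 peaks. Their median length was 723.5 nt in replicate 1 and 341.5 nt in replicate 2, beside 357 and 355 nt over all peaks. All of these LHCB peaks had a fold below the tenth percentile of their list, 2.195 and 2.86. Folds of peaks are the authors' own values, and peaks carry no strand. A peak of any fold in both replicates, which includes peaks past the tags, was found in 8 of 10 LHCB genes, beside 76.5% of 5525 genes with at least 10 TPM.

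On the chromosome 1 copies, the m6A peak of LHCB1.1 ran from 995 to 84 nt upstream of the strongest site in replicate 1 (912 nt, fold 1.90) and from 977 to 119 nt upstream in replicate 2 (fold 1.37). LHCB1.3 had peaks of 970 nt (fold 2.04) and 879 nt (fold 1.39) over the same stretch, and LHCB1.2 a peak of 933 nt (fold 2.07) in replicate 1 and short pieces of it in replicate 2. LHCB1.5 carried peaks of 963 nt (fold 2.0995) and 867 nt (fold 1.405). LHCB1.4 carried a peak of 912 nt (fold 1.94) in replicate 1 and of 219 nt (fold 1.32) in replicate 2. In replicate 1 the peaks of all 5 LHCB1 copies were at least 912 nt long, and in replicate 2 those of LHCB1.1, LHCB1.3 and LHCB1.5 were at least 859 nt.

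LHCB3 carried m6A peaks of 1078 nt (fold 1.56) and 305 nt (fold 1.51) in its body, the second 817.5 nt or more upstream of the strongest site. LHCB2.1 and LHCB2.2 carried peaks in replicate 1 alone, with folds of at most 1.62 and 1.63. LHCB4.1 was the only member with an m6A peak at its strongest site in both replicates (535 nt with a fold of 2.11, and 378 nt with a fold of 1.56), 1 of 10 genes beside 61.8% of 5525 genes and 32.5% of the 117 other genes at least as abundant as the lowest LHCB gene. The strongest m6A peak near any member, at LHCB2.3 with folds of 5.45 and 6.01, began 344 and 334 nt past the strongest site, where this gene had no tags, in a window that the locus AT3G27700 also overlaps. The peaks past the end of LHCB1.3 (folds 3.43 and 3.60) and of LHCB1.2 (fold 2.53, replicate 2) lie in windows that the loci AT1G29940 and AT1G29900 also overlap, and to which gene they belong was not tested.

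FLAG-CPSF70 CLIP peaks were found on all 10 LHCB genes in both replicates, beside 57.6% of 5525 genes and 73.5% of the 117 other genes at least as abundant as the lowest LHCB gene. Replicates 1 and 2 listed 40 and 32 LHCB peaks, of which 31 and 30 were shared with the other list (77.5% and 93.8%, beside 43.9% and 51.6% of all peaks). Their median folds were 3.14 and 2.97, beside 3.90 and 4.28 over all 14606 and 12427 peaks. The peaks were short, with medians of 66 and 68.5 nt. The control of the peak calls was not given in the sources used here, and CLIP of an overexpression line without its control shows where peaks lie, not how much more is bound than in Col0.

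A CLIP peak lay at the strongest site, within 25 nt of its midpoint, in both replicates in 7 of 10 LHCB genes, beside 24.8% of 5525 genes and 54.7% of the 117 abundant ones. LHCB4.1 had the highest fold there, 5.54 and 5.19, over a peak that began at the site and ran 134 and 136 nt downstream. LHCB1.3 followed with 4.35 and 4.39, LHCB1.2 with 4.12 and 3.64, LHCB3 with 3.30 and 2.76, LHCB1.5 with 3.12 and 2.64, LHCB2.2 with 3.12 and 3.12 and LHCB1.1 with 2.46 and 3.52. These 7 genes thus include members of all 4 antenna families. LHCB2.1 had such a peak in replicate 2 alone (fold 4.59). LHCB1.4 and LHCB2.3 had none. Their nearest peaks ended 164.5 and 320.5 nt upstream of the site in replicate 1, and 185.5 and 151.5 nt upstream in replicate 2.

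A second place of CLIP peaks recurred among the major trimer genes. In LHCB1.1, LHCB1.2, LHCB1.3, LHCB1.4, LHCB1.5, LHCB2.1 and LHCB2.2 a peak covered the position 220 nt upstream of the strongest site in both replicates, a position picked after the peaks had been seen. Since these peaks chose the position, their count is a description; 1.92% of 5525 genes and 11.1% of the 117 abundant ones had a peak there in both replicates. These peaks lay within 312.5 to 125 nt upstream, with folds from 1.77 in LHCB2.2 replicate 1 to 4.75 in LHCB1.4 replicate 2. These copies share sequence, so the peaks may share reads and are not independent. In LHCB3 the CLIP peaks already counted at the strongest site also overlapped the cluster that the cpsf70 tables do not list. They were chr5:22039426-22039479 of replicate 1 (fold 3.30) and chr5:22039336-22039480 of replicate 2 (fold 2.76). Both also overlapped the strongest Col0 cluster, chr5:22039447-22039494, so they are not particular to the unlisted cluster. The strongest LHCB CLIP peak of replicate 1 lay in the body of LHCB1.3, 874 to 944 nt upstream of the site (fold 5.77, and 4.77 in replicate 2). That of replicate 2 was in LHCB3, 892.5 to 949.5 nt upstream (fold 5.21, and 4.58 in replicate 1).

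Of the LHCB CLIP peaks, 77.5% and 78.1% overlapped an m6A peak of either m6A replicate, beside 39.1% and 44.6% of all CLIP peaks. Overlap with m6A peaks of both m6A replicates was found in 45.0% and 43.8%, beside 34.0% and 39.4%. The m6A peaks of the LHCB genes cover up to 77.3% of a gene's window in replicate 1, so an overlap of 1 nt is easily met there. At the strongest sites themselves, CLIP peaks lay outside the m6A peaks of both replicates in LHCB1.1, LHCB1.2, LHCB1.3 and LHCB2.2.

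**Figure D5:**
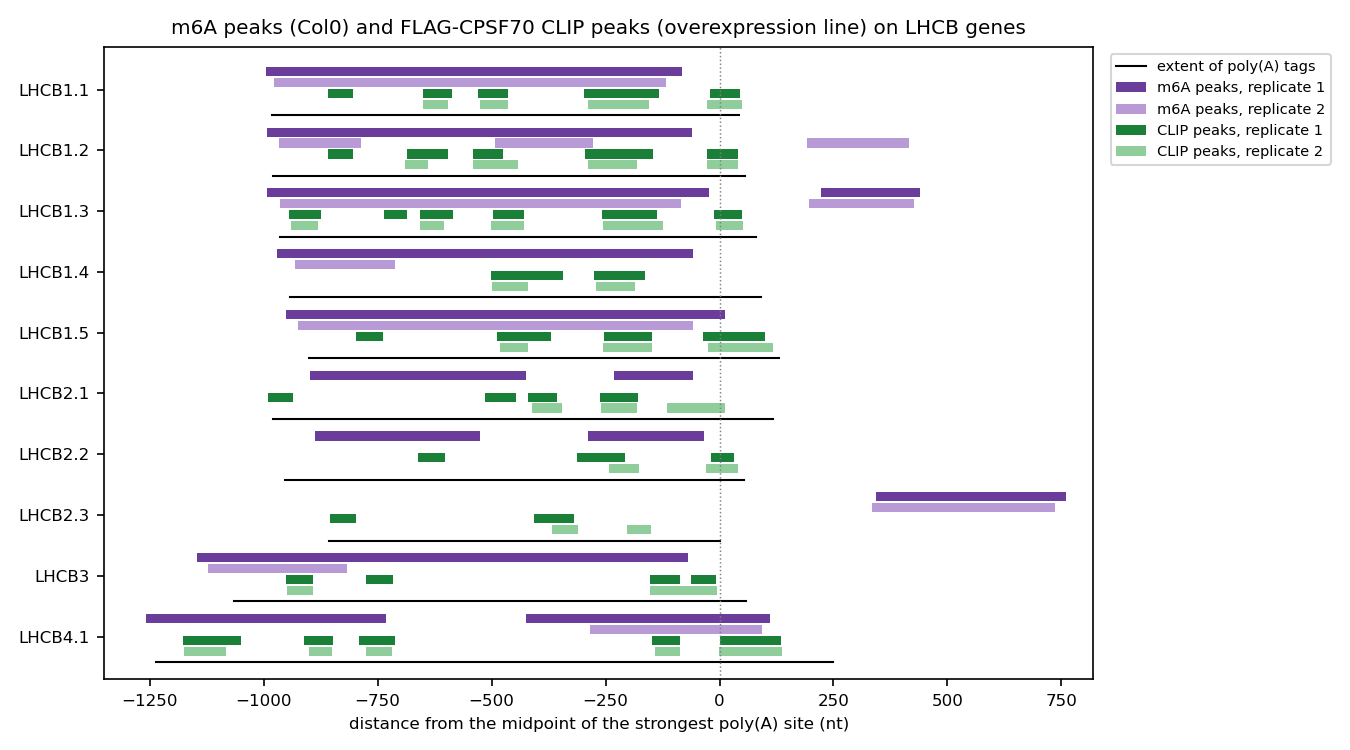
m6A peaks of Col0 (purple) and FLAG-CPSF70 CLIP peaks of the overexpression line (green) on the 10 LHCB genes, by distance in nt from the midpoint of the strongest poly(A) site (x axis), with dark bars for replicate 1, light bars for replicate 2 and a black line for the extent of poly(A) tags. m6A bars lie upstream of the site in 9 genes, and short CLIP bars sit at the site in both replicates in 7 genes.

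Other genes of the light-harvesting pathway were counted in the same fits. Of 6 other light-harvesting genes of photosystem II, 0 passed in gene totals in limma, with 4 changes above 0 and a median of 0.17. The smallest p values belonged to LHCB6 (CP24, −0.51), LHCB4.2 (0.31), NPQ4 (PsbS, the sensor of energy quenching, 0.25) and LHCB5 (CP26, 0.23). Of 6 photosystem I antenna genes 0 passed, with a median of 0.13, the smallest p values belonging to LHCA6 (−0.73), LHCA3 (0.39), LHCA4 (0.20) and LHCA1 (0.20). Of 11 photosystem II subunit genes 0 passed, with a median of 0.04 and the smallest p values in PSBP-1 (−0.55), PSBO2 (0.47), PSBR (0.30) and PSBTN (0.15). The median over all genes was 0.02, and all SE were 0.45.

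Of 6 genes for import, membrane insertion and chlorophyll b synthesis 0 passed, with a median of −0.15. Those with the smallest p were CPSRP54 (0.76), which carries LHCB proteins to the thylakoid, GDC1 (−0.51), CH1 (−0.41), the chlorophyll b synthase, and CAO (−0.40), a further subunit of the chloroplast signal recognition particle. Of 6 measured regulators and state-transition enzymes 0 passed in gene totals, with a median of −0.39. The smallest p values belonged to TAP38 (−1.31, adjusted p = 0.14 by limma), the phosphatase that reverses LHCB2 phosphorylation, STN8 (−0.76), GPRI1 (GLK1, −0.48) and GLK2 (−0.31).

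In the end zone TAP38 fell, with a change of −1.31 (SE 0.35, adjusted p = 0.011 by limma), and it was the single gene of these 5 lists to pass there. Its end-zone levels equal those of its gene total, which did not pass (adjusted p = 0.14 by limma). The calls differ through the SE that each fit set, 0.45 in gene totals. The call did not hold without Col0 replicate 1 (−1.13, adjusted p = 0.28 by limma) or without cpsf70 replicate 2 (−1.17, 0.23). In the mean tag position 3 regulators passed by limma: STN7 (−37.7 nt), GLK2 (372 nt) and STN8 (8.00 nt). None of these calls held without either cpsf70 library (adjusted p of 0.056 to 0.10 by limma). The tags of STN8 lay in 1 cluster in every table and those of STN7 in 1 cluster in cpsf70, so their spread there was 0 by construction. Those of GLK2 lay in 3 clusters over chr5:17798795-17800835 in Col0 and in 2 over chr5:17800781-17800871 in cpsf70. The GLK2 shift thus includes upstream Col0 tags where the cpsf70 tables list no cluster. The bounds of these clusters differed between the Col0 and cpsf70 tables, and a shift of the tags and a difference in how clusters were drawn cannot be told apart. In site use and in the ratio of upstream to end-zone tags no gene of the lists passed. The upstream ratio was above 0 in all 4 measured antenna genes of photosystem II outside the members, all 4 of photosystem I and all 11 photosystem II subunits, beside 85.9% of all genes.

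The 5 non-member genes whose tag totals over the 4 libraries were most like the mean LHCB profile were AT5G50460, LHCB5, AT4G18100, AT5G64130 and PCK1, at distances of 0.018 to 0.035 on the centred log2 scale among 1858 genes of at least 50 TPM. LHCB5 stood at 5415 and 4185 TPM in Col0 against 5992 and 5207 TPM in cpsf70. Among the members the distance from that profile was smallest for LHCB1.4 (0.067) and largest for LHCB3 (0.61) and LHCB1.3 (0.88). The order of libraries in the mean profile ran from Col0 replicate 2 (lowest) to cpsf70 replicate 1 (highest).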

How the data were processed

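Members and gene lists were chosen with earlier results of these data known. The submitters' processing notes name the TAIR10 genome, MACS2 2.2.5, HISAT2 2.1.0 and cutadapt 1.18, whose roles were not given in the sources used here. Per the file headers, the authors deposited poly(A) clusters in TPM for each library. They deposited peaks for each replicate with a fold (a ratio) and a −log10 p-value. Their preselected RNA-seq table holds FPKM of each library beside the deposited fold and p-value. The value of 1 read (0.319, 0.308, 0.257 and 0.164 TPM) was estimated from the spacing of values under 20 TPM; 81.3%, 75.5%, 82.1% and 75.1% of them were whole within 0.02 read, and 5.85% to 8.12% of values under 80 reads lay midway between whole reads, so no count test was run, and depth is an estimate.

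Gene spans (RefSeq, TAIR10.1) plus 200 nt past the end were searched on the strand inferred from the tags, with LHCB spans given priority where genes overlap. Clusters were joined at gaps of at most 24 nt into 30191 sites, 13668 of them listed in all 4 tables. limma 3.58.1 (R 4.3.3, eBayes, Benjamini-Hochberg over all features, threshold 0.05) was run on log2(TPM + 1), a scale that understates the change of low values, and on mean position in nt; it was tested on simulated data. In gene totals, sites and end zones limma found 1 spread for all features. The end zone and the upstream ratio (genes of at least 10 TPM in every library and 10 TPM upstream on average) were added after the data had been seen. Peaks overlapping by at least 1 nt were counted as shared. All 10 members are named throughout; of each related list, genes past the threshold or else the 4 with the smallest p are named for gene totals, and those past the threshold for other measures. Alternatives were other scaling, joining, filters, pseudocounts, robust eBayes, replicate blocks and leaving out each library.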

Additional observations from a re-analysis of the deposited data

Results flagged for a closer look

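Poly(A) tags on the strand opposite to LHCB3 were higher in both cpsf70 libraries than in both Col0 libraries. They summed to 4.14 and 3.69 TPM in Col0 replicates 1 and 2 and to 6.78 and 4.27 TPM in cpsf70 replicates 1 and 2. The values lie near 3 TPM, the lowest level that the Col0 tables list, whereas cpsf70 replicate 1 lists 5944 clusters below it. The locus AT5G54280 also overlaps the LHCB3 window. To which gene these tags belong was not tested, nor was the difference. Opposite to LHCB1.2 the tags went the other way, at 5.42 and 8.00 TPM in Col0 and 0 TPM in both cpsf70 libraries. Opposite to LHCB1.3 they were most abundant and overlapped between genotypes, at 15.6 and 10.2 TPM in Col0 against 13.4 and 9.85 TPM in cpsf70. Those opposite to LHCB1.5 also overlapped.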

How the results depend on the processing

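The count of LHCB genes past the threshold moved from 0 to 1 in gene totals with a pseudocount of 10 TPM (LHCB1.3, 1.11). Of all 10197 genes, 54 were called higher and 189 lower there. In site use it moved from 0 to 1 with clusters joined by midpoints within 24 nt (LHCB3, −3.42), where the cluster bounds of the genotypes differ. Of all 3276 genes measured with that joining, 187 were called higher and 355 lower. Joining by midpoints made 188 LHCB sites and 6 calls, 5 higher and 1 lower, in LHCB1.4, LHCB3 and LHCB4.1. Of all 17074 sites so joined, 278 were called higher and 184 lower. Robust eBayes called 2 of 15 LHCB sites, the proximal sites of LHCB2.1 and LHCB2.2. Of all 13668 sites it called 275 higher and 297 lower. End-zone calls were 2 with median ratios (LHCB1.3 and LHCB3), where 35 of all 5240 genes were called higher and 119 lower. With the replicate block they were 0, where 1 of all 5082 genes was called higher and 25 lower. Same-numbered deviations correlated with r = 0.25 in gene totals, 0.20 in sites, 0.084 in site use and −0.22 in the upstream ratio. Replicate 1 exceeded replicate 2 in the gene totals of all 10 members in both genotypes. The median-ratio factors over all sites listed in every table ran the same way. They were 1.08 and 0.892 in Col0 replicates 1 and 2 and 1.14 and 0.915 in cpsf70 replicates 1 and 2. No label says that a number marks a shared planting or batch, so the numbers were not taken as pairs. With the replicate block the counts of LHCB calls were 0 in all measures (LHCB1.3 in the end zone, adjusted p = 0.092). In mean tag position no gene of 5525 passed with the block, STN7, GLK2 and STN8 included (adjusted p of 0.20 to 0.22), and TAP38 in the end zone did not pass (0.068). A crossed replicate block called 1 of 10 members by the upstream ratio, LHCB2.3, where 99 of all 979 genes were called higher and 7 lower. With a library left out, end-zone counts were 0 to 1, upstream-ratio counts 0 to 1, and the other counts 0. With peaks of at least 10 on the −log10 scale, genes with shared peaks fell from 8 to 3 for m6A and from 10 to 4 for CLIP.

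Some signs turned. LHCB3 gene totals were 0.019 with midpoints, and with median ratios the end zones of LHCB1.5, LHCB2.2 and LHCB4.1 were −0.043, −0.058 and −0.0092. With a library left out, gene totals ranged from −0.054 to 0.46 in LHCB1.1, −0.13 to 0.36 in LHCB1.5, −0.077 to 0.27 in LHCB2.2, −0.076 to 0.41 in LHCB2.3 and −0.077 to 0.34 in LHCB4.1. End zones ranged from −0.12 to 0.32 in LHCB1.1, −0.089 to 0.44 in LHCB1.2, −0.045 to 0.36 in LHCB1.4, −0.34 to 0.37 in LHCB1.5, −0.13 to 0.27 in LHCB2.1, −0.25 to 0.25 in LHCB2.2, −0.096 to 0.38 in LHCB2.3 and −0.13 to 0.23 in LHCB4.1. Mean positions ranged from −72.0 to 5.48 nt in LHCB1.2, −35.3 to 69.8 nt in LHCB1.3 and −65.4 to 2.67 nt in LHCB1.5, and upstream ratios from −1.07 to 0.45 in LHCB1.3 and −0.046 to 1.48 in LHCB1.5. The cause of these turns was not tested. The tables of both Col0 libraries and of cpsf70 replicate 2 list no nuclear cluster under 3 TPM, so weaker upstream tags are missing from their shares. Only cpsf70 replicate 1 lists such clusters (5944).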
